A study of Homo sapiens with 2 samples.

Results

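The regions described here are the better enriched open-chromatin peaks that were listed in Z-138 cells with SMARCA4 knocked down and that no peak of the control cells touched. They were chosen from the deposited peak lists: knockdown peaks on chromosomes 1 to 22 and X, with a fold enrichment over background of 8 or more in the authors' knockdown list and no control peak overlapping by 1 bp or more. This gave 349 regions out of 41540 knockdown peaks. Of the 16459 knockdown peaks with a fold of 8 or more, these 349 were 2.12%, and over all folds 20.6% of the 41540 knockdown peaks had no control peak. In the converse comparison 39.5% of the 55124 control peaks had no knockdown peak. The fold and the overlap made the choice, so both are given below as descriptions and with no test.

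Z-138 is an established cell line of mantle cell lymphoma, a cancer of mature B cells. The 2 libraries were 1 from cells with the SMARCA4 shRNA knockdown and 1 from cells with a control shRNA. Both cultures received doxycycline, and the labels of these libraries name no other agent. Accessibility was assayed by ATAC-seq, in which a transposase cuts exposed DNA and leaves sequencing adapters in it. With 1 library per group there is no replicate, so no difference can be set against the spread between cultures and no p-value between the groups is given. Knockdown efficiency was not analysed here, because peak lists carry no RNA or protein level.

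SMARCA4 (BRG1) is one of the alternative ATPase subunits that drive the SWI/SNF complexes, which slide or evict nucleosomes at enhancers and promoters. Loss of the ATPase is known mainly for lowering accessibility at enhancers, and gains at other sites have also been described in other cell systems. Peaks that appear without a control counterpart are where such a gain would be looked for. A peak caller lists a site when the reads stacked there exceed the local background by its limit over a smallest width. A site outside a list fell short in height or width and is not shown to be closed.

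Knockdown-only regions of this strength were few, and control-only regions of the same fold were several times as numerous. In the knockdown list 349 of 16459 peaks with a fold of 8 or more had no control peak, which is 2.12% (95% counting interval 1.91 to 2.35%). In the control list 1794 of 18107 peaks of that fold had no knockdown peak, which is 9.91% (9.48 to 10.4%). The control-only number was thus 5.14 times the knockdown-only number, and 2.5 times with both lists brought to equal length (718 knockdown-only and 1794 control-only peaks). The intervals cover counting error over regions only, and neighbouring regions are not independent. Folds of the 2 lists rest on separate backgrounds, and the knockdown library was the deeper one. From the caller's values it had an estimated 9.76 M reads or fragments, and the control 6.89 M, taking 2.7 Gb as the genome size. Across 11 other settings of the fold minimum, overlap rule and list limits the knockdown-only number ran from 45 to 1056, and the control-only number was the larger in all 11. The ratio of the numbers ran from 1.7, with a q-value of at most 1e-05 in the control list, to 12.2, at a fold minimum of 10.

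The same order was seen when strength was counted in reads and the limit was scaled to depth. The lowest backgrounds of the lists set the depth ratio, by which a knockdown summit would stack 1.34 times the reads of a control summit. Of 14348 knockdown peaks with at least 14 summit reads, 311 had no control peak, with an interval of the share of 1.94 to 2.42%. Of 20578 control peaks with at least 10.4 reads, the matching limit, 2140 had no knockdown peak, or 10.4% (9.99 to 10.8%). At 20 reads the knockdown share was 22 of 7404 peaks, or 0.297%, and at the matching 14.9 reads the control share was 578 of 11996, or 4.82%. This limit in reads was set after the data had been seen.

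The share without a partner was lower at higher fold in both lists, and the knockdown list had the lower share in every fold band. Between folds of 8 and 9 a control peak was missing for 210 of 3793 knockdown peaks, or 5.54%, and a knockdown peak was missing for 844 of 4489 control peaks, or 18.8%. Between 10 and 11 it was missing for 29 of 2359 knockdown peaks, or 1.23%, and for 267 of 2630 control peaks, or 10.2%. Between 11 and 12 the numbers were 12 of 1929 knockdown peaks and 111 of 2122 control peaks. The 349 regions are therefore crowded at the lower edge of their range: 210 of them had a fold under 9, and 45 had a fold of 10 or more.

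**Figure D1:**
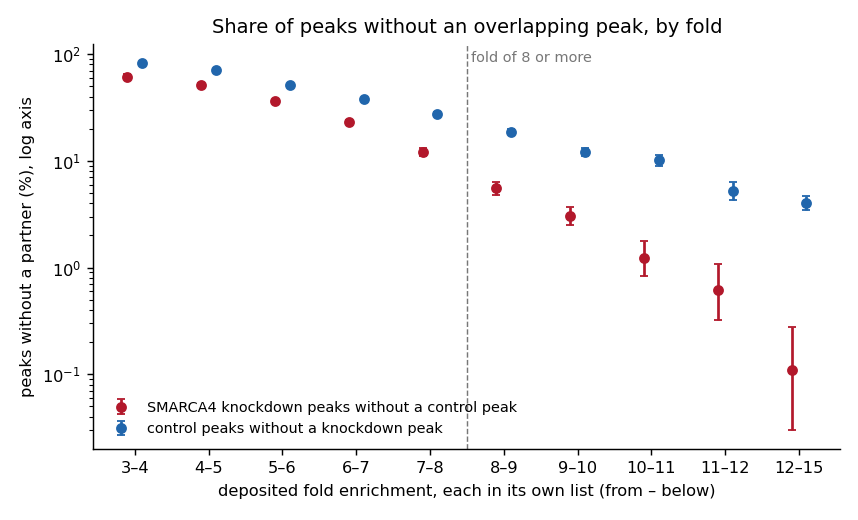
Share of peaks without an overlapping peak of the other library (percent, log axis) by deposited fold, for the knockdown list (red) and the control list (blue), with 95% counting intervals and 1 library each. In every fold band plotted the knockdown share lies below the control share, from 5.54% against 18.8% at folds of 8 to 9 to 0.109% against 4.05% at folds of 12 to 15.

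By their values the regions were modest peaks, well below the typical shared peak. Their fold ran from 8.01 to 13.2 with a median of 8.67 (quartiles 8.32 and 9.46), against a median of 10.6 for the 16110 knockdown peaks of that fold range or above that did have a control peak. Their summits stacked between 10 and 28 reads with a median of 12, against a median of 18 for those shared peaks. Summits of 10 to 12 reads made up 214 of the 349, or 61.3% (56 to 66.5%), against 15.8% of the shared peaks. Only 36 regions had 16 reads or more. A summit of 12 reads carries an exact Poisson interval of 6.2 to 21 reads, so single regions are imprecise even before library preparation is considered.

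Just inside the limit, chr7:75856287-75856401 and chr8:32020319-32020432 had a fold of 8.01 with 10 summit reads each. At chr1:50546727-50546879 the fold was the same and the summit had 11 reads. All coordinates are of the build hg19 and are counted from 1. Just outside it, the knockdown-only peaks chr3:111855864-111856186, chr13:56762024-56762133 and chr2:48333816-48333970 each had a fold of 7.97. Their summits held 13 reads on chromosome 3 and 12 reads on the other two. The limit therefore separates peaks that are alike in these values.

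The summit reads of the regions can be set beside the number of reads the caller would need in the control library. Scaled to control depth, the 349 summits correspond to between 7.45 and 20.9 reads, with a median of 8.94. The fewest control reads that would pass the caller's limit were computed for each region from its knockdown background scaled to control depth. That number was 3 reads at 140 regions, 4 at 160, 5 at 42 and between 6 and 8 at the remaining 7. Set against the largest control stack that would still go unlisted, the scaled summit was a median 3.48 times as high (quartiles 2.98 and 3.73, range 2.38 to 6.34).

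The regions were picked for a high knockdown fold, from which their summit reads are solved, and for lacking a control peak. All 349 scaled summits were above the limit, but values chosen in this way are no measured difference and do not bear on the part that depth has in the missing control peaks, which was not tested. At shared peaks the control background was close to the knockdown background scaled to control depth. The scaled value was a median 0.932 times the control one over 16110 pairs (quartiles 0.813 and 1.06). Those shared peaks were taller, and their knockdown background had a median of 0.73 reads, against 0.427 in the regions. In shared peaks weighted to the regions' summit reads the median was 0.427 as well. The control background at the regions themselves was not checked, because they have no control peak to give it. A control stack with enough reads but narrower than the smallest listed width, 94 bp, would also be unlisted. How many of the regions have such a stack was not tested, because the lists give no reads outside peaks.

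Shared peaks of the same knockdown strength show how far control summits spread. At shared peaks with exactly 10 knockdown reads and a fold of 8 or more, the control summit had a median of 8 reads (quartiles 6 and 10), and 85 of 520, or 16.3%, had 5 reads or fewer. At this knockdown strength 75 peaks, 12.6% of all, had no control peak. At 12 knockdown reads 70 of 1122 shared peaks, or 6.24%, had 5 control reads or fewer, and 59 peaks, or 5%, had none listed. From 15 to 28 knockdown reads the control summit had a median of 16 reads, 0.66% had 5 or fewer, and 58 peaks, or 0.679%, were unlisted. Both the unlisted share and the share listed with 5 reads or fewer were thus smaller at taller knockdown summits.

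Peak width was smaller than that of shared peaks, also at equal summit height. The regions were 93 to 444 bp wide with a median of 143 bp (quartiles 124 and 169). Shared peaks of the same fold range had a median of 271 bp, and 176 bp when weighted to the same summit reads (quartiles 140 and 248). At each summit height from 10 to 17 reads the median width of the regions was the smaller, by 19 to 97 bp. A narrow peak also has fewer bases that a control peak could touch, so width bears on the rule itself. With control peaks required to cover 50% of a region, the median width was 247 bp.

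The local background set by the caller had a median of 0.427 reads in the regions (quartiles 0.329 and 0.561). It exceeded the lowest value of the list, 0.322 reads, at 271 of 349 regions, or 77.7% (72.9 to 81.9%), and at those 271 the surrounding 10 kb held a median of 54 reads. The fold minimum caps the background at each summit height, so these values are largely set by the rule. This holds in the regions and in shared peaks of equal height alike, and no difference between the sets is read from them.

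**Figure D2:**
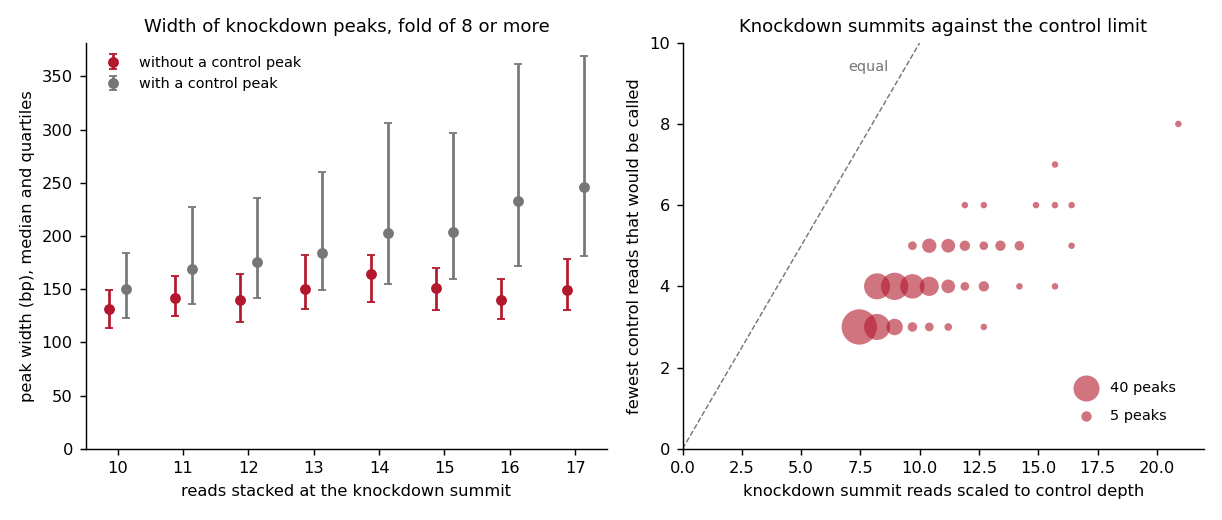
Left, width in bp (points, medians; bars, quartiles) of knockdown peaks with a fold of 8 or more by summit reads, without a control peak (red) and with one (grey). The red medians are the lower ones at every height, for example 131 bp against 150 bp at 10 reads. Right, the 349 summits scaled to control depth (reads) against the fewest control reads that would be called, with circle area growing with the number of regions. All circles lie right of the dashed line of equality, in regions that were chosen for a high knockdown fold.

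Most regions lay within 50 kb of a control peak, and few lay directly beside one. The nearest control peak was a median of 12.2 kb away (quartiles 4.22 and 30.7 kb, range 9 bp to 210 kb). It lay within 500 bp of 46 regions, or 13.2% (9.81 to 17.2%), and within 5 kb of 98, or 28.1% (23.4 to 33.1%). It lay within 50 kb of 310, or 88.8%, and more than 100 kb from 8. Knockdown-only peaks below a fold of 8 were nearer, with 24.5% within 500 bp and a median of 7.84 kb. Within 50 kb their share, 88.1%, was close to that of the regions. Control-only peaks of fold 8 or more were farther from a peak of the other library, with 2.84% within 500 bp (2.12 to 3.72%), 73% within 50 kb and a median of 24.7 kb. The control list is the longer one, and it offers more neighbours to the knockdown-only regions than the knockdown list offers to the control-only ones. The share within 500 bp also depends on the rule: it was 65.2% with 50% cover required, 48.1% with strength set by 12 summit reads and 7.48% with a q-value of at most 1e-05 in the control list.

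**Figure D3:**
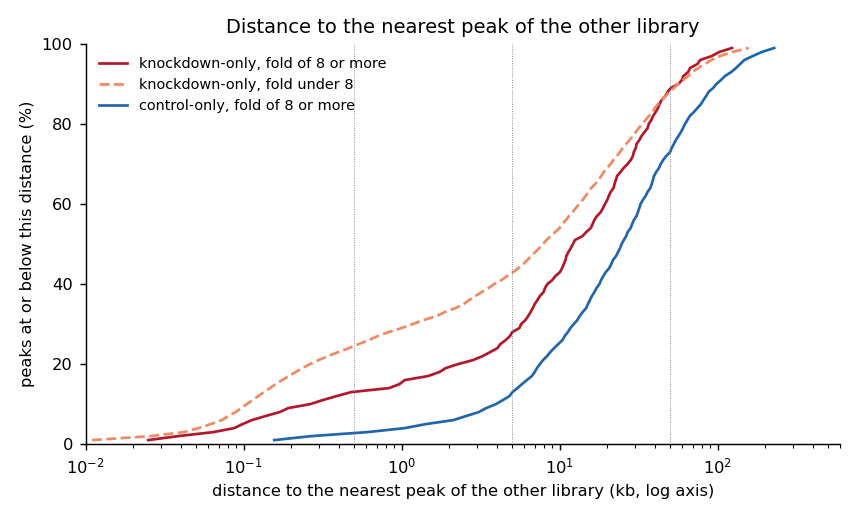
Cumulative share of peaks (percent) by distance to the nearest peak of the other library (kb, log axis), for knockdown-only regions of fold 8 or more (red), knockdown-only peaks below that fold (orange, dashed) and control-only peaks of fold 8 or more (blue). At 500 bp, the first dotted line, the curves stand at 13.2%, 24.5% and 2.84%.

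The 46 regions near a control peak lie beside it by the rule, which bars any overlap. The rule thereby also limits how close the paired summits can be, so their distances are a description. Their summits lay 141 to 697 bp from that control summit, with a median of 296 bp. A median of 14 reads was stacked at these knockdown summits, which is 10.4 reads at control depth, against a median of 8 reads, and a range of 3 to 28, at the control summits next to them. The knockdown summits were chosen for a fold of 8 or more and the control summits were not, so the taller knockdown stacks are a description. In 27 of the 46 the neighbouring control peak had a knockdown peak of its own. In the other 19 it had none, and there the control summits held between 3 and 12 reads with a median of 6. For these 19 the paired summits of the lists were a median of 259 bp apart. With the 46 left out, 303 regions remained.

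The region of highest fold belongs to this adjacent class. It is chr4:113021137-113021344, with a fold of 13.2 and 19 summit reads (interval 11.4 to 29.7). The control peak beside it, chr4:113020983-113021084, had 7 reads at a summit 254 bp away. The knockdown list also has a peak there, chr4:113020983-113021071, with 7 reads as well. So the 2 libraries share a small peak, and the knockdown list has a taller one 65 bp farther along.

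Next by fold came chr8:2075669-2075847, at 13.2, where 17 reads were stacked and 41 reads filled the surrounding 10 kb. The control peak closest to it, 28.7 kb off, had 4 reads and overlapped a knockdown peak of 9 reads. At chr4:88894871-88895019 the fold was 13.1 and the summit had 21 reads, between unshared peaks. On one side a knockdown peak of 8 reads without a control partner lay 1.63 kb away, and on the other a control peak of 10 reads without a knockdown partner lay 1.74 kb away. Within 50 kb there were 6 other knockdown and 4 control peaks.

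A summit of 22 reads and a fold of 12.8 were found at chr3:111805054-111805288. It sits in a stretch with 7 other knockdown and 7 control peaks within 50 kb. The knockdown-only peak chr3:111855864-111856186, named above as just outside the limit, lies in the same part of chromosome 3. At chr7:52227270-52227404 the fold was 11.9, with 17 reads and with 2 other knockdown and 2 control peaks within 50 kb. At chr7:105683322-105683494 it was 11.8, also with 17 reads, and 4 other knockdown and 6 control peaks lay around it. Near both, the closest control peak, at 4.88 and 14 kb, overlapped a knockdown peak.

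Lower in the order, peaks around the regions were sparser. The region chr2:179145088-179145255 had 15 reads and a fold of 11.7. Its only neighbour within 50 kb was a site 26 kb away that both libraries listed, with 16 knockdown and 14 control reads. The region chr20:16414832-16414982 also had 15 reads, at a fold of 11.6, and its closest control peak, 28.6 kb away with 10 reads, had no knockdown partner. At chr2:158192787-158192947 the summit held 17 reads and the fold was 11.5. A strong shared site with 28 knockdown and 21 control reads lay 8.34 kb from it.

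The region chr3:87019082-87019200, at a fold of 11.5 and 17 reads, had no other peak of either library within 50 kb. At chr3:186938040-186938267 the fold was 11.3 and the summit 15 reads, with 0 other knockdown and 2 control peaks within 50 kb. The last of the 12, chr7:106587752-106587965, had 15 reads and a fold of 11.1, with 1 shared site 12.4 kb away.

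Over these 12, the nearest other knockdown peak had a control partner at 10. That share was 73.6% over all 349 regions and 78.6% over all knockdown peaks. The 12 held 15 to 22 summit reads, were 119 to 235 bp wide and lay on 6 chromosomes, with 3 each on chromosomes 3 and 7. Around them 30 other knockdown and 35 control peaks were counted within 50 kb. Only 1 of them had a control peak within 500 bp, and 3 had one within 5 kb.

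The region with the most summit reads was not among the 12 of highest fold. It is chr12:104323214-104323603, with 28 reads but a fold of 8.18, because 286 reads filled its surrounding 10 kb. It stood 190 bp from a control peak of 28 reads, which itself overlapped a knockdown peak of 41 reads. After it came the chromosome 3 region of fold 12.8 and chr11:85955700-85955890, with 22 reads each. The chromosome 11 region had a fold of 9.67 and lay 30 bp from a control peak of 15 reads that both libraries shared. The knockdown summit of that shared site also had 15 reads, so the region beside it was the taller, whereas on chromosome 12 it was the lower.

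The widest region, chr21:34638517-34638960, spanned 444 bp with 12 reads and a fold of 8.94, and no control peak was nearer than 36.2 kb. It was followed by chr17:61523402-61523828, 427 bp wide, with 13 reads and a fold of 8.44. The third was chr20:2082660-2083085, 426 bp wide with 16 reads, 174 bp from a shared control peak of 12 reads.

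The most isolated regions had between 10 and 17 summit reads. The farthest from any control peak was chr6:66921013-66921180, at 210 kb, with 14 reads and a fold of 10.1. It had 1 other knockdown peak within 50 kb, also without a control partner. The region chr15:39305638-39305758 was 160 kb from a control peak and had 10 reads, and chr18:48188667-48188814 was 145 kb away and had 11 reads. The distance was 133 kb for chr11:38432857-38432982, with 14 reads. It was 113 kb for chr6:145829394-145829588, with 14 reads and a fold of 10.4, and 113 kb for the sixth, the chromosome 3 region that begins at 87019082. Apart from the first, these 6 had no other peak of either library within 50 kb.

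The neighbourhood of the regions held both libraries' peaks in near the genome-wide proportion. Within 50 kb of the 349 summits, 725 other knockdown peaks and 928 control peaks were counted, which is 78.1 per 100 control peaks. Within 500 kb there were 6485 and 8326, or 77.9 per 100, and over all chromosomes analysed the ratio was 75.4 per 100. More other knockdown than control peaks lay within 50 kb at 52 of the 349, and no other peak of either library lay there at 28.

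The nearest other knockdown peak had a control partner at 257 of the 349, or 73.6% (68.7 to 78.2%). For shared peaks weighted to the same summit reads this share was 79.4%, just above that interval, and for all knockdown peaks it was 78.6%. Around control-only peaks of fold 8 or more, the nearest other control peak had a knockdown partner at 977 of 1794, or 54.5% (52.1 to 56.8%). Of all control peaks 60.5% had a knockdown partner themselves, which is an unlike measure. The share of their nearest other control peaks with a partner was not computed. The control peak nearest to a region overlapped a knockdown peak in 177 of 349 cases, or 50.7% (45.3 to 56.1%), also below the 60.5% of all control peaks. The rule bars a control peak that touches the region itself, so these shares are not of like sets.

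Another knockdown peak lay within 5 kb more often than around shared peaks of the same height. This was so at 72 regions, or 20.6% (16.5 to 25.3%), against 12.8% of shared peaks weighted to the same summit reads. Within 500 bp the share was 36 of 349, or 10.3% (7.33 to 14%), against 7.5%, which lies inside the interval. Against all shared peaks of fold 8 or more the order was the opposite, since 14.9% of them had another peak within 500 bp and 23.9% within 5 kb. With strength held equal by fold the excess was absent. Of knockdown peaks of fold 8 or more with another within 500 bp, the regions made up 1.48% (1.04 to 2.04%). The genome-wide share of each fold band would give 2.36%, and that of each band of summit reads 1.09%. Where the other peak was farther off but within 5 kb, the regions made up 2.44% (1.71 to 3.36%). Fold would give 2.63% there and summit reads 1.29%. Which way the comparison points therefore depends on whether strength is held equal, and by which measure. It also depends on the regions beside control peaks: when a control peak within 500 bp also counted as a partner, the share was 13.2% (9.6 to 17.5%), against 12.3% of the shared peaks of that setting weighted likewise, which lies inside the interval. With a q-value of at most 1e-05 in both lists it was 12.9% (10.9 to 15.1%), against 7.53%. When regions were chosen by at least 12 summit reads in place of fold it was 75.8%, against 34.4%. Of 10 alternatives, the weighted share lay below the interval in 9. A close neighbour was more common still around knockdown-only peaks below a fold of 8, at 37.8% within 5 kb and 23% within 500 bp. Around control-only peaks of fold 8 or more, another control peak lay within 5 kb at 16.7% (15 to 18.5%). These unshared peaks were not weighted to the summit reads of the regions.

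Pairs of regions were counted by the distance between them. No pair lay within 10 kb, 8 pairs, with 16 regions, lay within 100 kb, and 54 pairs, with 95 of the 349 regions, lay within 1000 kb. The number of pairs that regions placed without regard to each other would give was not computed. The closest were chr1:158087693-158087869 and chr1:158119498-158119744, 31.6 kb apart with folds of 9.55 and 8.01. Of the 8 pairs, 3 were on chromosome 13. The closest there were chr13:51824377-51824517 and chr13:51860617-51860773, 36.1 kb apart, with folds of 8.32 and 9.65.

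Every chromosome analysed carried at least 4 of the regions, and no chromosome held a large part of them. Chromosome 1 had the most, with 33. As a share of knockdown peaks of fold 8 or more, the regions made up between 0.967% on chromosome 19 and 4.02% on chromosome 20. The share that fold alone would give was found by averaging the genome-wide share of each of 7 fold bands. It lay outside the counting interval of 2 of 23 chromosomes, where counting error alone would place about 1.15. With 9 bands of summit reads it was outside on 3, chromosome 7 being the third.

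Chromosome 13 was above the share given by fold. It held 21 of the regions among 573 peaks, or 3.66% (2.28 to 5.55%), where fold would give 2.08% and summit reads 1.43%. The background at its peaks of fold 8 or more had a median of 0.881 reads, and its regions had a median of 0.694 reads, against 0.427 for the regions of all chromosomes. At peaks of that fold chromosome 7 had a median background of 0.908 reads and chromosome 12 of 0.854. Their shares were 2.37% and 2.3%, where fold would give 1.87% and 1.97% and summit reads 1.4% and 1.62%. The part of background in the chromosome 13 result was not tested. The control-only share of chromosome 13 was 72 of 685, or 10.5% (8.32 to 13.1%), next to 9.91% overall. The excess did not hold under every setting: with a fold minimum of 10 chromosome 13 held 0 of the remaining 45 regions, and with lists of equal length its share was 4.19% against 4.36% overall.

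Chromosome 19 was below the share given by fold, and its control-only share was below that of all chromosomes. A share given by fold was not computed for control-only peaks. It held 5 regions among 517 peaks, or 0.967% (0.315 to 2.24%), where fold would give 2.4%. In its control list 8 of 414 peaks of fold 8 or more, or 1.93% (0.838 to 3.77%), had no knockdown peak, against 9.91% overall. All 5 regions on chromosome 19 lay within 269 bp of a control peak, the nearest at 23 bp. The strongest, chr19:52207409-52207560, had 14 reads and a fold of 11.1, 88 bp from a control peak of 7 reads. Chromosome 19 thus held 0 regions that stood more than 500 bp from a control peak. Its position also turned with the lists, since with equal lengths its share was 5.42% against 4.36% overall.

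**Figure D4:**
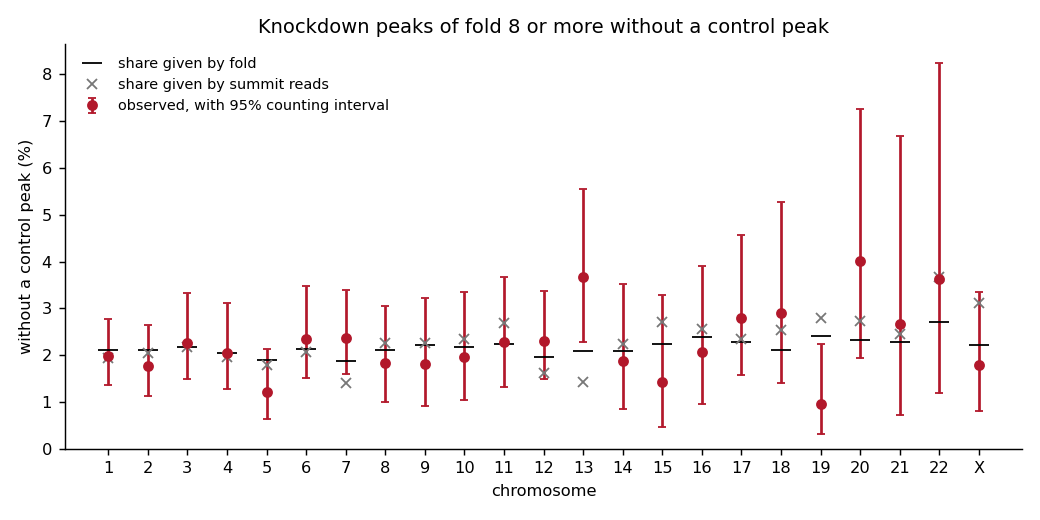
Share of knockdown peaks with a fold of 8 or more that had no control peak (percent), by chromosome, with 95% counting intervals (red), and the shares given by fold (black bars) and by summit reads (grey crosses). Chromosome 13, at 3.66%, has its interval above both marks, and chromosome 19, at 0.967%, has it below both.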

How the data were processed

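Each library came with 1 list of 10 columns per peak. Per the submitters' processing notes, bcl2fastq 2.17.1.14, BWA and MACS2 were used with the build hg19; no parameters are named there. Peaks were called per library. The authors' fold is the ratio of summit reads plus 1 to background plus 1. The deposited −log10 p- and q-values and the deposited score (10 times −log10 q without decimals) are the caller's; starts, ends and summit positions are deposited in bp. Only chromosomes 1 to 22 and X were used.

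From fold and p, the summit reads and background of each peak were solved with a Poisson tail (Python 3.11.15, scipy 1.17.1). Deposited −log10 p-values came back within 4.2e-05. On simulated peaks the reads came back exactly for 37760 of 37760 knockdown and 50249 of 50262 control peaks. The smallest widths, 89 bp in the knockdown and 94 bp in the control list, were taken as extension lengths. Overlaps were checked with bedtools 2.31.1. Shares carry Clopper-Pearson 95% intervals. Amplified reads without molecular identifiers are not independent molecules, so intervals cover counting error only.

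The regions, limits and lists were chosen with earlier results of these data known. Named were the 12 regions of highest fold, 3 with most reads, 3 widest, 6 farthest from a control peak, and 3 on either side of the fold limit. The chromosome 19 regions and the closest pairs were chosen after their values were seen. Genes, promoters, GC content, motifs, marker genes and sequences were not analysed here, since no hg19 genome or annotation was used. The alternatives changed the fold minimum, the overlap rule, the q-value limit, the list length, the strength measure and the depth scaling.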

Additional observations from a re-analysis of the deposited data

How the results depend on the processing

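No paired analysis was possible because each group has 1 library, and for the same reason leaving out a replicate was not possible. The promoter, GC content and motif results with their alternatives were not run. Control-only peaks outnumbered knockdown-only ones under all 11 alternatives, by 1.7 to 12.2 times. Beyond what fewer or more peaks give by construction, the cause of the shifts below was not tested. The knockdown-only number, 349 (2.12%), became 892 (4.26%) at a fold of 7, 139 (1.1%) at 9 and 45 (0.469%) at 10. It was 871 (5.29%) with 50% cover, 1056 (6.42%) with q at most 1e-05 in the control list or in both lists, 718 (4.36%) with lists of equal length and 723 (3.96%) at 12 summit reads. The share was 1.84% with a 500 bp gap and 2.98% by summit. The control-only number, 1794, became 3315, 950 and 549 at folds of 7, 9 and 10, 2875 with 50% cover and 2809 with the q limit in both lists. The share within 500 bp of a control peak, 13.2%, became 17.8% at a fold of 10, 65.2% with 50% cover, 38.3% by summit, 7.48% with either q limit, 7.66% with equal lists and 48.1% at 12 reads; it has no value with a 500 bp gap. Within 5 kb the share, 28.1%, became 33.3%, 71.2%, 48.9%, 16.1%, 17.1% and 77.7% in that order, and 17.2% with a 500 bp gap. The median distance, 12.2 kb, became 0 kb with 50% cover, 16.9 kb with a 500 bp gap, 5.69 kb by summit, 21.5 kb with either q limit, 20 kb with equal lists and 0.558 kb at 12 reads. The median width, 143 bp, became 136 at a fold of 7, 160 at 10, 247 with 50% cover, 155 by summit, 156 with either q limit, 152 with equal lists and 135 at 12 reads. Median summit reads, 12, became 10.5, 13 and 15 at folds of 7, 9 and 10, and 13 with 50% cover or at 12 reads. Background above the lowest, 77.7%, became 95.6% at a fold of 10, 88.4% with 50% cover, 82.1% by summit and 98.8% at 12 reads. Another knockdown peak within 5 kb, 20.6%, became 26.7% at a fold of 10, 13.2% with a 500 bp gap, 12.9% with the q limit in both lists and 75.8% at 12 reads. The share of nearest knockdown peaks with a partner, 73.6%, became 80% at a fold of 10, 64.6% with the q limit in the control list and 83% at 12 reads. The scaled summit over the largest unlisted control stack, 3.48, became 3.82 when shared peaks set the scaling. Chromosomes 13 and 19 each kept their side of the overall share under 7 of 11 alternatives, and the overall share lay outside their interval under 3 for chromosome 13 and 2 for chromosome 19. With lists of equal length they changed sides, at 4.19% and 5.42% against 4.36% overall.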
